A study of Mus musculus with 16 samples.

Results

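The chromatin of 10 transcription factor genes of the developing heart, Nkx2-5, Isl1, Tbx5, Tbx20, Hand1, Hand2, Mef2c, Irx4, Meis1 and Meis2, was described in XX (female) and XY (male) mouse embryonic stem (ES) cells. They are 10 of the 22367 protein-coding genes of the GENCODE M1 annotation of mm9, the build of the deposited lists. For each gene, every enriched region that touched the gene body or lay within 50 kb of the transcription start site (TSS, the 5′ end of the gene model) was taken. That stretch is called the window of the gene. No measured value enters that rule, but the genes were chosen with earlier results of these data known.

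Both groups carried C57BL/6 and CAST/EiJ genomes, since the lines came from hybrid embryos, and both were grown in serum with LIF on inactivated C57BL/6 fibroblasts that were depleted before harvest. The XX group was represented by lines BCF3 and BCF4, and the XY group by lines BCM1 and BCM2. Each line was assayed by chromatin immunoprecipitation and sequencing for H3K27Ac, H3K27Me3 and H3K4Me1, and each sex had 1 IgG and 1 input library, 16 samples in all at passages 7 to 10 by the labels. For every mark the files hold 1 list for the XX lines and 1 for the XY lines, 6 lists altogether, with the position of each enriched region and no count, score or replicate. A difference between the lists therefore has no error estimate and no test, and sex cannot be told apart from line, depth or calling threshold. Presence, width and edges are given below as descriptions beside the same values over all protein-coding genes.

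The heart forms from mesoderm under a small set of transcription factors that switch on contractile and conduction genes together. Nkx2-5 and Isl1 are homeodomain factors of the early heart fields, the T-box factors Tbx5 and Tbx20 and the bHLH factors Hand1 and Hand2 shape the chambers, Mef2c is a MADS-box factor of muscle, Irx4 is a homeodomain factor of the ventricle, and Meis1 and Meis2 are TALE homeodomain cofactors used in many tissues. In pluripotent cells, developmental regulators of this kind are typically held silent by Polycomb complexes, which deposit H3K27Me3 over CpG-rich starts. H3K4Me1 accompanies enhancers and the flanks of poised or active promoters, and H3K27Ac accompanies active promoters and enhancers.

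To show the kind of sequence that lay under the marks, 6 RefSeq promoters are printed, each running from 250 bases before the start to 50 after it, 5′ to 3′ along transcription, with every CpG in capitals. RefSeq promoters were matched for 8 of the 10 genes, and Tbx5 and Hand1 are named only. Coordinates of the promoters are those of GRCm38.p6. Isl1 (chr13:116309639-116309938, minus strand) was chosen as the CpG-richest of them, with 37 CpG. Hand2 (chr8:57320733-57321032, plus strand) lay under the widest H3K27Me3 region. Meis1 (chr11:19018920-19019219, minus strand) and Meis2 (chr2:116064570-116064869, minus strand) are the genes whose starts differed in H3K27Ac between the lists. Mef2c is shown at the start of its gene model (promoter 1, chr13:83503784-83504083, plus strand), which no list covered, and at a start 19.6 kb further on (promoter 2, chr13:83523406-83523705, plus strand), which H3K27Me3 covered in both lists.
Isl1: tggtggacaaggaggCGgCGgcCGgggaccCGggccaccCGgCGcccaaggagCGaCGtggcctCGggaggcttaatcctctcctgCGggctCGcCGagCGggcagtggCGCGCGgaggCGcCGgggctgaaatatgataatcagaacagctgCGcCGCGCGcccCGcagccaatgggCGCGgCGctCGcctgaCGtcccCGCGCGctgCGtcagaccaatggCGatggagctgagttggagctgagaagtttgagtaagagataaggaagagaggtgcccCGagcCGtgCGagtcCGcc
Hand2: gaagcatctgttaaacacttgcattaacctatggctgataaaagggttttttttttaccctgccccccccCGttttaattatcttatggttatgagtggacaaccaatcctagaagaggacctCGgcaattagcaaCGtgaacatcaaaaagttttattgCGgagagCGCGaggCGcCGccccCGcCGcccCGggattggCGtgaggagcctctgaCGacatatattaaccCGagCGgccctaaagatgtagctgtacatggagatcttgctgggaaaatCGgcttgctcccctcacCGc
Meis1: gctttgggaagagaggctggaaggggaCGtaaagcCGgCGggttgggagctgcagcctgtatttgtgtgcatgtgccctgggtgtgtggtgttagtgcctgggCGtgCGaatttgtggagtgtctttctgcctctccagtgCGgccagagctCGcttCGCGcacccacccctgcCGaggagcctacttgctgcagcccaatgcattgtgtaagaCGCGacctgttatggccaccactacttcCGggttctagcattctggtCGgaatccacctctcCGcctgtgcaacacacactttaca
Meis2: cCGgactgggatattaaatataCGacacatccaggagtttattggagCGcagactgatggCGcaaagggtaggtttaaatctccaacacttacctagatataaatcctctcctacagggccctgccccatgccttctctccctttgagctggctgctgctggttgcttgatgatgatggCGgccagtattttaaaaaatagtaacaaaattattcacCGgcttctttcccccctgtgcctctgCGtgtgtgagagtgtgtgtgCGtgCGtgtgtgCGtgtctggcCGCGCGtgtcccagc
Mef2c promoter 1: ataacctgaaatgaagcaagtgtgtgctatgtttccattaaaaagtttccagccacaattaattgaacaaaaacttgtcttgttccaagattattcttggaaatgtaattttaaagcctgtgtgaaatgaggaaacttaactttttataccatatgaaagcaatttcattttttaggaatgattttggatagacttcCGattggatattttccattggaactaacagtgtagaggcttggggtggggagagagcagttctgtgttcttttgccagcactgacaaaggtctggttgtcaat
Mef2c promoter 2: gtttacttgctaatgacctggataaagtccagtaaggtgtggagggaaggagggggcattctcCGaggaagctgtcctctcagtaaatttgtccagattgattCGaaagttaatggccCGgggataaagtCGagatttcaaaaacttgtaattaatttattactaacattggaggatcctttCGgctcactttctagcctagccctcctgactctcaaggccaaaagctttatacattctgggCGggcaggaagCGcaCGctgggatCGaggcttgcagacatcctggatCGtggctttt

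The 37 CpG of the Isl1 promoter were more than in 94.4% of the 32851 RefSeq promoters, whose median was 7 CpG. Its ratio of observed to expected CpG was 1.05, against a median of 0.384. Irx4 had 31 CpG, Tbx20 26, Hand2 17, Meis1 15, Meis2 13 and Nkx2-5 9, so that each of these starts held more CpG than the median promoter. Isl1, Irx4 and Tbx20 lay above the upper quartile of 20 CpG. Hand2, Meis1, Meis2 and Nkx2-5 lay below it, at the 68.6, 65.4, 62.1 and 54.2 percentiles. Mef2c promoter 1 had 1 CpG and lay at the 5.43 percentile of CpG number, while Mef2c promoter 2 had 10 CpG and lay at the 56.5 percentile. Of these starts, that with more CpG was that under H3K27Me3. A further Mef2c promoter, 69.7 kb into the gene, held 4 CpG and had no region of any list either.

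At the start sites, 9 of the 10 genes carried H3K27Me3 in the female list and the same 9 in the male list. Mef2c was the exception. Across all protein-coding genes, 23.2% had H3K27Me3 over the TSS in the female list and 19.4% in the male list. H3K27Ac was nearly absent from the starts, with 1 gene in the female list (Meis2) and 1 in the male list (Meis1), against 45.6% of all protein-coding genes in the female list and 46.2% in the male list. H3K4Me1 covered 8 starts in the female list, all but Isl1 and Mef2c, and 8 in the male list, all but Tbx5 and Mef2c, against a background of 44.7% in the female list and 41.5% in the male list. H3K27Me3 without H3K27Ac was found at 8 starts in the female list (background 17.0%) and 8 in the male list (background 14.6%). H3K27Me3 together with H3K4Me1 was found at 8 starts in the female list (background 15.8%) and 8 in the male list (background 12.8%). Since the lists come from populations of cells, marks that overlap need not lie on the same copies of a gene.

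**Figure D1:**
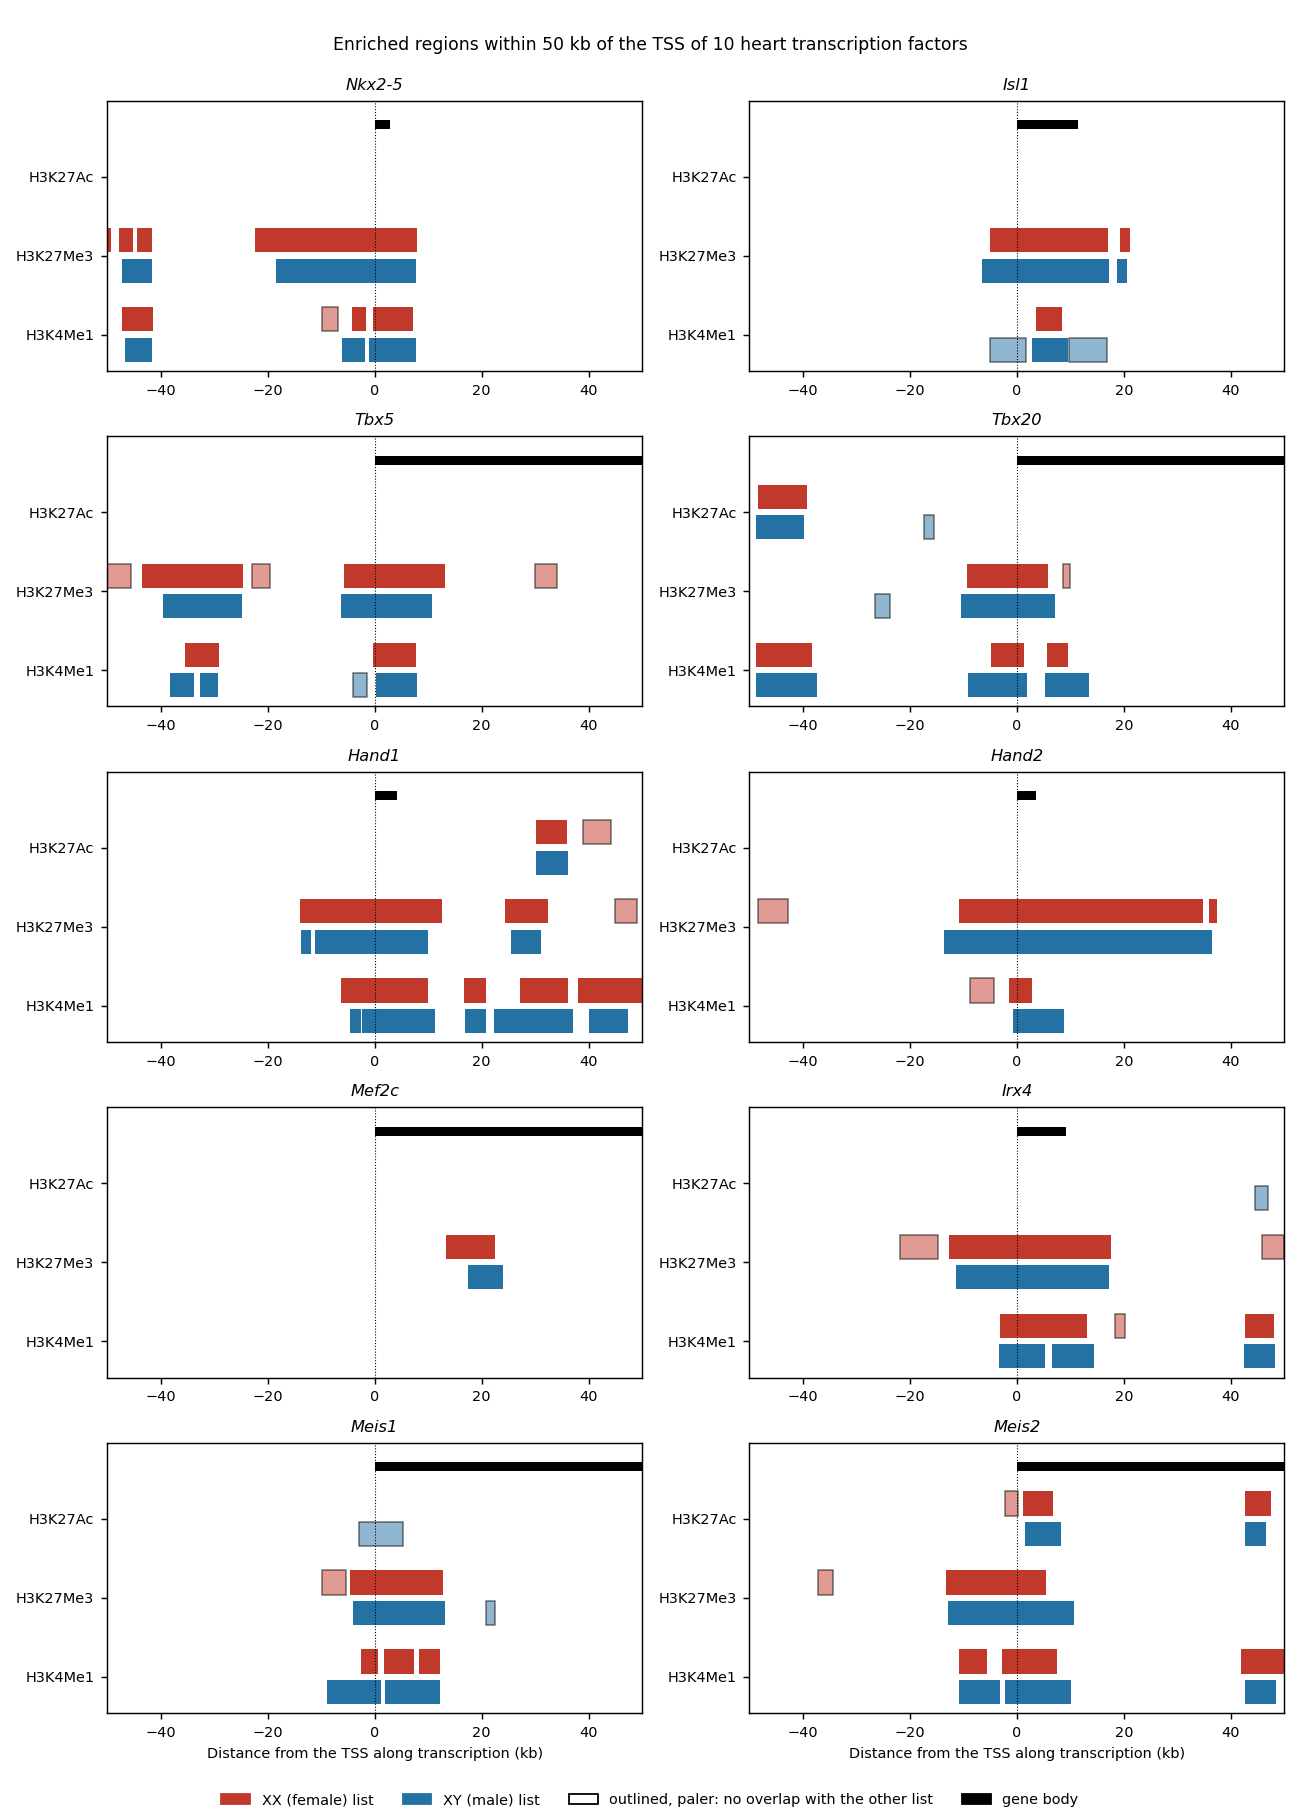
Enriched regions within 50 kb of the TSS of the 10 genes, drawn along transcription in kb, with the female list (red) above the male list (blue) for each mark. Outlined paler bars overlap no region of the other list, and the black bar is the gene body. H3K27Me3 lies over the dotted TSS line in both lists at every gene but Mef2c.

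Of the possible combinations of the 6 lists at a TSS, Nkx2-5, Tbx20, Hand1, Hand2 and Irx4 shared a single pattern, H3K27Me3 and H3K4Me1 in both lists and H3K27Ac in neither. This pattern was found at 1413 protein-coding genes (6.32%). Isl1 differed from it only in lacking H3K4Me1 in the female list, as did 268 genes in all (1.2%), and Tbx5 only in lacking H3K4Me1 in the male list, as did 358 genes (1.6%). Meis1 added H3K27Ac in the male list, a pattern of 193 genes (0.863%), and Meis2 added H3K27Ac in the female list, a pattern of 145 genes (0.648%). The TSS of Mef2c carried no region of any list, like 6842 genes (30.6%).

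The H3K27Me3 regions over these starts were wide. Their median width was 22.2 kb in the female list and 23.6 kb in the male list (9 genes in each), against a median of 8.6 kb over 5193 covered protein-coding genes in the female list and 8.2 kb over 4330 in the male list. All 9 were above the protein-coding median in both lists. They lay between the 78.2 and 97.8 percentiles of the female list and between the 84.5 and 98.4 percentiles of the male list.

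**Figure D2:**
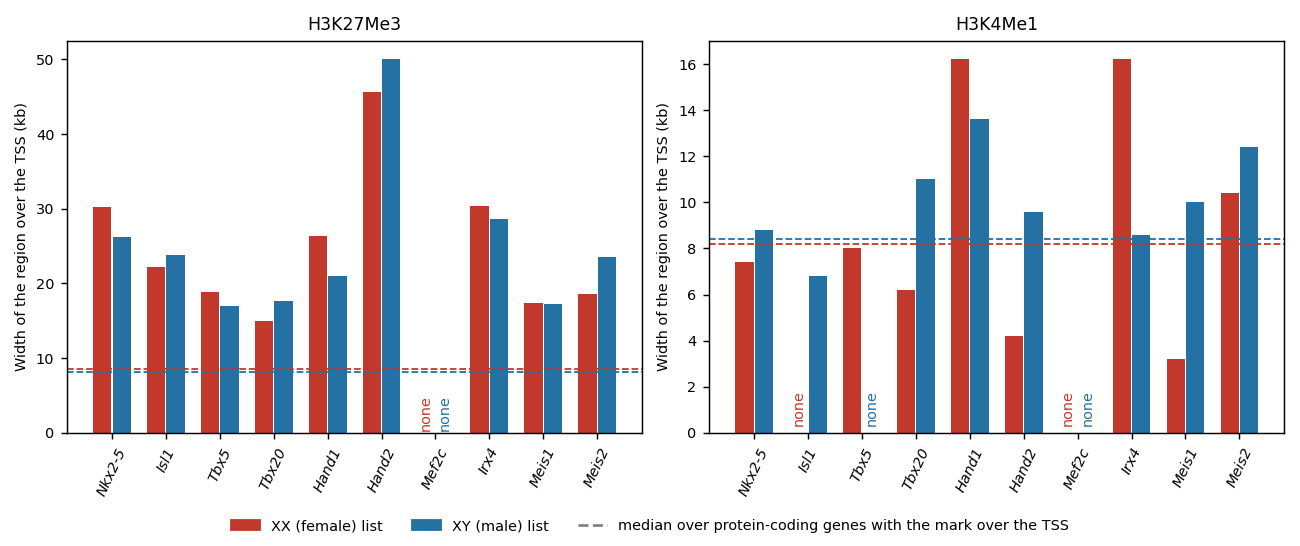
Width in kb of the region over the TSS of each gene for H3K27Me3 (left) and H3K4Me1 (right), with the female list (red) to the left of the male list (blue). Dashed lines are the medians over protein-coding genes with the mark over the TSS, 8.6 kb (female) and 8.2 kb (male) for H3K27Me3, and all 9 covered genes lie above them.

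Nkx2-5 (ENSMUSG00000015579.4, chr17:26975609-26978510, minus strand), among the earliest markers of cardiac progenitors, is a gene of 2.9 kb that lay inside a single H3K27Me3 region. That region was 30.2 kb wide in the female list, reaching 22.3 kb upstream of the TSS and 7.91 kb downstream. In the male list it was 26.2 kb wide, reaching 18.5 kb upstream and 7.71 kb downstream. The downstream edges thus lay 200 bp apart, the unit of the grid on which all regions start and end, while the upstream edge lay 3800 bp further out in the female list. H3K4Me1 covered the TSS and the whole gene in a region of 7.4 kb in the female list and 8.8 kb in the male list. Further upstream, H3K4Me1 lay at 4.29 to 1.69 kb before the TSS in the female list and at 6.09 to 1.89 kb in the male list, and a region of 3.0 kb at 9.89 to 6.89 kb upstream was in the female list alone, 0.801 kb from the nearest male region. A distal stretch about 47.3 to 41.7 kb upstream carried H3K27Me3 with H3K4Me1 in both lists, as 2 H3K27Me3 regions in the female list and 1 in the male list. A further H3K27Me3 region of 13.0 kb in the female list reached into the window from 62.3 kb upstream, and the male regions that overlapped it lay beyond the window. No H3K27Ac was found in the window.

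Isl1 (ENSMUSG00000042258.5, chr13:117088478-117099896, minus strand), a LIM homeodomain factor of the second heart field, also lay entirely within H3K27Me3. The region was 22.2 kb wide in the female list, reaching 5.1 kb upstream and 17.1 kb downstream, and 23.8 kb wide in the male list, reaching 6.5 kb upstream and 17.3 kb downstream. Inside it the lists differed in H3K4Me1. The female list held 1 H3K4Me1 region, of 5.0 kb, at 3.5 to 8.49 kb past the TSS. The male list held 3, an overlapping region of 6.6 kb, a region of 6.8 kb over the TSS and a region of 7.2 kb at 9.7 to 16.9 kb that ran past the end of the gene. The regions of 6.8 and 7.2 kb were in the male list alone, 1.8 kb and 1.2 kb from the female region. H3K4Me1 covered 5.0 kb of the window in the female list and 20.6 kb in the male list, with 24.3% of the bases of either list shared. A small H3K27Me3 region of 1.8 kb past the gene, at 19.3 to 21.1 kb in the female list and 18.7 to 20.5 kb in the male list, was in both. No H3K27Ac was found in the window.

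The T-box genes carried distal as well as proximal regions. Tbx5 (ENSMUSG00000018263.8, chr5:120284672-120335227, plus strand), required for the atria, the left ventricle and the forelimb, had 2 H3K27Me3 domains that both lists shared. The region over the TSS was 18.8 kb wide in the female list, from 5.67 kb upstream to 13.1 kb downstream, and 17.0 kb wide in the male list, from 6.27 kb upstream to 10.7 kb downstream. The upstream domain spanned 43.5 to 24.7 kb before the TSS in the female list and 39.5 to 24.9 kb in the male list, with H3K4Me1 inside it in both. The female list alone had 3 more H3K27Me3 regions, of 5.6 and 3.4 kb on both flanks of that upstream domain and of 4.2 kb inside an intron at 29.9 to 34.1 kb, the last 19.2 kb from any male region. H3K27Me3 covered 49.7 kb of the window in the female list and 31.6 kb in the male list.

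H3K4Me1 at the start of Tbx5 shows how close a call over a TSS can be. The female region ran from 0.271 kb before the TSS to 7.73 kb after it, and the male region from 0.329 to 7.93 kb after it. The male region therefore missed the TSS by 329 bp and is not counted as covering it, although the regions overlap. A region of 2.6 kb at 4.07 to 1.47 kb upstream was in the male list alone, 1.2 kb from the nearest female region.

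Tbx20 (ENSMUSG00000031965.7, chr9:24527648-24578746, minus strand), a T-box factor of the myocardium and the endocardial cushions, had the narrowest H3K27Me3 region over a start in the female list, 15.0 kb, against 17.6 kb in the male list. H3K4Me1 over the start was 6.2 kb wide in the female list and 11.0 kb in the male list. The gene was unlike the others so far in having H3K27Ac in its window. A region 48.5 to 39.3 kb upstream in the female list and 48.7 to 39.9 kb upstream in the male list carried H3K27Ac with H3K4Me1 and without H3K27Me3 in both, and no protein-coding start lies in it. Small regions of 1 list lay between that stretch and the gene, with H3K27Ac of 1.8 kb at 17.3 to 15.5 kb upstream and H3K27Me3 of 2.8 kb at 26.5 to 23.7 kb upstream in the male list. The female list alone had H3K27Me3 of 1.4 kb at 8.55 to 9.95 kb downstream, 1.4 kb from the male region.

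The Hand genes encode bHLH factors of the ventricles and of extraembryonic and limb tissues. Hand2 (ENSMUSG00000038193.3, chr8:59799780-59803314, plus strand) is 3.54 kb long and lay in the widest H3K27Me3 region of the 10 starts in both lists, 45599 bp in the female list and 49999 bp in the male list. The region reached 10.8 kb upstream and 34.8 kb downstream in the female list, and 13.6 kb upstream and 36.4 kb downstream in the male list. A separate female region of 1.6 kb lay at 35.8 to 37.4 kb, across the downstream edge of the male region. H3K4Me1 over the start was 4.2 kb wide in the female list and 9.6 kb in the male list. Each list reached where the other did not, the female one with a further region of 4.6 kb at 8.78 to 4.18 kb upstream and the male one to 8.82 kb downstream, and 24.3% of the covered bases were shared. The female list alone had H3K27Me3 of 5.6 kb at 48.4 to 42.8 kb upstream, 29.2 kb from the nearest male region.

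Hand1 (ENSMUSG00000037335.7, chr11:57642207-57646320, minus strand) had H3K27Me3 of 26.4 kb over its start in the female list and 21.0 kb in the male list. The male list held a further region of 1.8 kb at 13.7 to 11.9 kb upstream that lay inside the female region, so the outer upstream edges were close, at 13.9 kb in the female list and 13.7 kb in the male list. The same H3K27Me3 region covered the start of the neighbouring gene model Gm11003 in both lists. H3K4Me1 over the start was 16.2 kb wide in the female list and 13.6 kb in the male list. The window also holds the start of Sap30l, a component of the Sin3 deacetylase complex. All H3K27Ac of the window lay closer to that start than to Hand1, a shared region over its start of 5.8 kb in the female list and 6.0 kb in the male list, and a region of 5.2 kb in the female list alone, at 38.9 to 44.1 kb past the Hand1 TSS and 7.74 kb from the Sap30l TSS. H3K27Me3 reached the Sap30l start in the female list, in a region of 8.0 kb, and stopped 0.062 kb short of it in the male list, in a region of 5.6 kb. H3K27Me3 of 4.2 kb at 44.9 to 49.1 kb was in the female list alone.

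Mef2c (ENSMUSG00000005583.8, chr13:83643033-83806684, plus strand), a MADS-box factor of cardiac and skeletal muscle and of neurons, was nearly bare. In its window of 214 kb, the lists held 1 region each, both H3K27Me3 and both over the second annotated start, 20.9 kb into the gene. The female region was 9.2 kb wide, from 13.4 to 22.6 kb past the TSS, and the male region 6.6 kb wide, from 17.4 to 24.0 kb. They shared 5.2 kb, 49.1% of the bases of either. With that start counted in place of the 5′ end of the gene model, all 10 genes carried H3K27Me3 over a start in both lists. H3K27Ac and H3K4Me1 were found nowhere in the window.

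Irx4 (ENSMUSG00000021604.7, chr13:73397945-73407068, plus strand), which acts in ventricular muscle, lay inside H3K27Me3 of 30.4 kb in the female list and 28.6 kb in the male list. The upstream edges lay 12.7 kb out in the female list and 11.3 kb out in the male list, and the downstream edges 17.7 kb out in the female list and 17.3 kb in the male list. H3K4Me1 lay over the gene as 1 region of 16.2 kb in the female list and as 2 regions in the male list, 8.6 kb over the start and 7.8 kb from 6.66 kb on. The female list alone had H3K27Me3 of 7.0 kb at 21.7 to 14.7 kb upstream and H3K4Me1 of 2.0 kb at 18.3 to 20.3 kb downstream. A distal stretch with H3K4Me1 at 42.7 to 48.1 kb in the female list and 42.5 to 48.3 kb in the male list differed in its other mark. In the female list it overlapped H3K27Me3 of 5.0 kb, at 45.9 to 50.9 kb, that the male list lacked. In the male list it overlapped H3K27Ac of 2.4 kb, at 44.5 to 46.9 kb, that the female list lacked. The nearest protein-coding start to that stretch is Ndufs6, a gene of the respiratory chain, about 20.0 kb away from the female H3K4Me1 region.

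Meis1 (ENSMUSG00000020160.10, chr11:18780433-18918961, minus strand), a partner of Hox and Pbx proteins, had the largest difference in covered H3K27Ac among the 10 genes. The male list held an H3K27Ac region of 8.2 kb over the start, from 2.84 kb upstream to 5.36 kb downstream, and the nearest female H3K27Ac region was 49001 bp away. Of the 4 annotated starts of the gene, the first 3 lay in this region. H3K27Me3 over the start was nearly alike, 17.4 kb wide in the female list and 17.2 kb in the male list, and it overlapped the male H3K27Ac region. It also covered the start of Gm16140, a neighbouring gene model within the window, in both lists. H3K4Me1 over the start was 3.2 kb wide in the female list, the narrowest of the 8, and 10.0 kb in the male list, where it reached 8.84 kb upstream.

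Fibroblast markers were checked beside this result, because the ES cells had been grown on fibroblasts. Of 17 such genes, 0 had H3K27Ac over the TSS in the female list and 3 in the male list (S100a4, Tagln and Twist1), while Col1a1, Col1a2, Col3a1, Postn and Thy1 had none in either. Over all protein-coding genes, 45.6% (female) and 46.2% (male) had H3K27Ac there, with 2.95% in the male list alone. H3K4Me1 lay over 5 of the 17 starts in the female list and 9 in the male list, against 44.7% (female) and 41.5% (male). H3K27Me3 lay over 9 in the female list and 7 in the male list, against 23.2% (female) and 19.4% (male). The paper states that few fibroblasts remained and that they were of both sexes. The part of residual fibroblasts in the male H3K27Ac at Meis1 was not tested. The ES cell markers had H3K27Ac over the same 8 of 9 starts in both lists (all but Esrrb, whose gene model carried no region at its 5′ end) and H3K27Me3 over 0.

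Inside the gene, Meis1 carried H3K27Ac with H3K4Me1 and without H3K27Me3 at intronic sites that both lists shared. The first began 59962 bp past the TSS in both lists and ended at 63.0 kb in the female list and 65.4 kb in the male list, and the next lay at 71.6 to 74.6 kb in the female list and 69.6 to 75.0 kb in the male list. Both were 3.0 kb wide in the female list and 5.4 kb in the male list. H3K27Ac covered 6.0 kb of the window in the female list and 19.0 kb in the male list. H3K27Me3 of 4.4 kb upstream of the start was in the female list alone, and H3K27Me3 of 1.8 kb in an intron in the male list alone.

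Meis2 (ENSMUSG00000027210.11, chr2:115688800-115891575, minus strand), the paralog of Meis1, differed in the other direction at the 5′ end of its gene model. The female list held H3K27Ac of 2.4 kb from 2.22 kb upstream to 0.174 kb downstream of the TSS, which the male list lacked. The male list had H3K27Ac close by, in a region from 1.58 to 8.17 kb downstream, 1.4 kb from the female region, and the female list had a region there too, from 1.18 to 6.77 kb. Of the 15 annotated starts of Meis2, those at 3.31 and 3.48 kb lay under H3K27Ac in both lists, those at 0, 1.22, 1.33 and 1.37 kb in the female list alone and that at 7.0 kb in the male list alone. Meis2 thus carried H3K27Ac at annotated starts in both lists, and the lists differed in how far it extended to either side. H3K27Me3 overlapped it in both, at a width of 18.6 kb in the female list, reaching 5.37 kb downstream, and of 23.6 kb in the male list, reaching 10.8 kb downstream. H3K4Me1 over the start was 10.4 kb wide in the female list and 12.4 kb in the male list.

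Away from its start, Meis2 had an intronic site with H3K27Ac and H3K4Me1 in both lists, at 42.6 to 47.6 kb in the female list and 42.6 to 46.6 kb in the male list for H3K27Ac. Its 3′ end carried H3K27Me3 from 184 to 216 kb in the female list, in 3 regions, and from 186 to 216 kb in the male list, in 2 regions, with H3K4Me1 within. The annotated starts at 193 kb lay under both marks in both lists. An H3K4Me1 region of 5.2 kb at 83.2 to 88.4 kb was in the female list alone and carried no other mark. So were H3K27Me3 regions of 2.8 kb upstream and 1.8 kb in an intron.

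**Figure D3:**
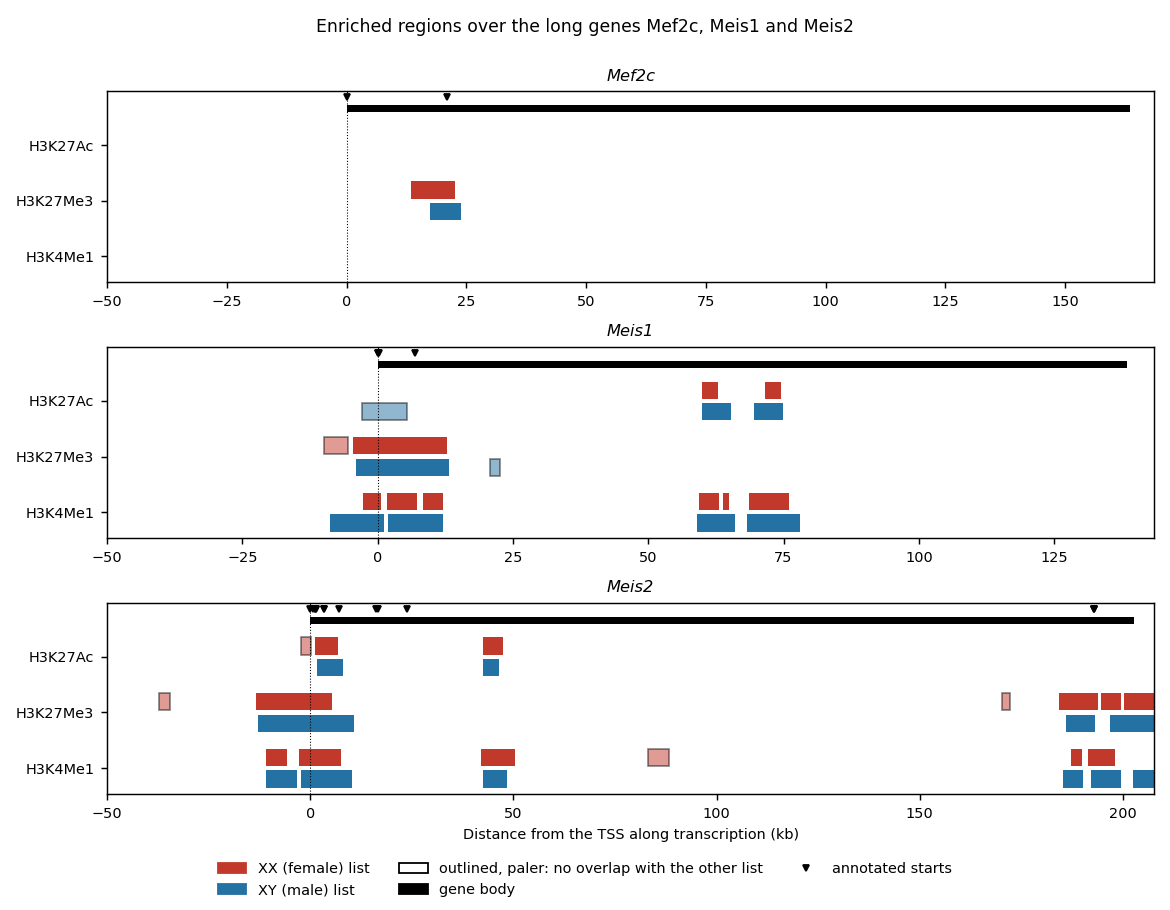
Enriched regions along the long genes Mef2c, Meis1 and Meis2, from 50 kb upstream of the TSS to 5 kb past the gene end, with the female list (red) above the male list (blue) for each mark and triangles at the annotated starts. Mef2c has a single H3K27Me3 region per list at its start at 20.9 kb, and the intronic H3K27Ac regions of Meis1 and Meis2 are in both lists.

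The edges of the regions over the starts were then compared between the lists. For the 9 genes with H3K27Me3 in both, the upstream edges differed by a median of 1400 bp and the downstream edges by 1400 bp, against 1200 and 1200 bp over the 3848 protein-coding genes covered in both lists. The region was wider in the female list at Nkx2-5, Tbx5, Hand1, Irx4 and Meis1 and wider in the male list at Isl1, Tbx20, Hand2 and Meis2, with a median difference, female minus male, of 200 bp, against 600 bp over all those genes. For H3K4Me1, 7 genes were covered in both lists, and the region was wider in the female list at Hand1 and Irx4 and wider in the male list at the other 5, with a median difference of -2000 bp, against 0 bp over 7724 protein-coding genes. The median H3K4Me1 width over the start was 7.7 kb in the female list and 9.8 kb in the male list (8 genes in each), against 8.2 kb (female) and 8.4 kb (male) over all protein-coding genes with the mark. When regions up to 1 kb apart were merged, the median differences became 1800 bp for H3K27Me3 and -4800 bp for H3K4Me1. Merged differences over all protein-coding genes are not given here, so the merged values cannot be set against the 600 and 0 bp above.

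Over the whole windows, the balance between the lists differed by mark. H3K27Me3 covered 331 kb in the female list and 279 kb in the male list, a ratio of 1.19, against 1.25 for the genome. It covered more in the female list at 8 genes and more in the male list at Isl1 and Tbx20. H3K4Me1 covered 196 kb in the female list and 236 kb in the male list, a ratio of 0.831, against 1.04 for the genome. It covered more in the female list at 3 genes (Nkx2-5, Irx4 and Meis2), more in the male list at 6, and none at Mef2c. Of the male surplus, Isl1 with 15.6 kb found in the male list alone, Meis1 with 12.2 kb and Tbx20 with 10.0 kb held the largest parts. H3K27Ac covered 39.2 kb in the female list and 48.6 kb in the male list, a ratio of 0.807, against 1.07 for the genome. It covered more in the female list at 2 genes (Hand1 and Meis2), more in the male list at 3 (Tbx20, Irx4 and Meis1), and none at 5. The male surplus lay mostly at Meis1, with 6.0 kb (female) and 19.0 kb (male), of which 13.0 kb was in the male list alone. With windows of 100 kb the ratio was 0.975. Of the bases covered in either list, 72.7% were shared for H3K27Me3, 62.0% for H3K4Me1 and 50.9% for H3K27Ac. Taken gene by gene where a window held the mark, the median shared percentage was 69.4% for H3K27Me3 (10 genes), against 44.1% over 15638 protein-coding genes and 63.1% over the 3848 with H3K27Me3 over the TSS in both lists. For H3K4Me1 it was 66.7% (9 genes), close to the 66.2% over 17898 protein-coding genes, and for H3K27Ac 51.8% (5 genes), against 66.7% over 18179. Among genes with H3K27Me3 over the TSS in both lists, it was 64.9% for H3K4Me1 (3663 genes) and 62.0% for H3K27Ac (3136 genes).

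**Figure D4:**
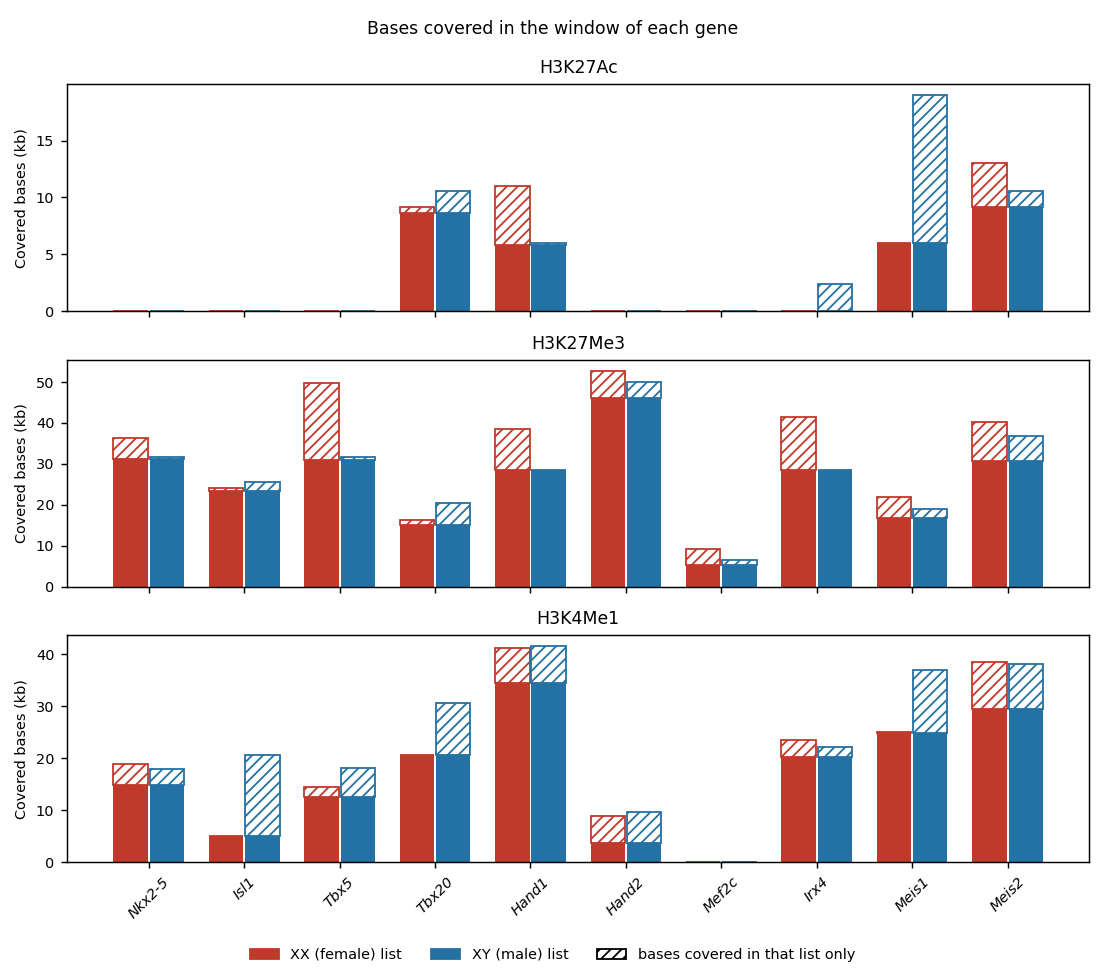
Bases covered in the window of each gene, in kb, for each mark, with the female list (red) to the left of the male list (blue). Solid bars are bases covered in both lists and hatched bars are bases covered in that list alone. Meis1 H3K27Ac, at 6.0 kb in the female list and 19.0 kb in the male list, and Isl1 H3K4Me1, at 5.0 kb (female) and 20.6 kb (male), show the largest parts in the male list alone, and Tbx5 H3K27Me3, at 49.7 kb (female) and 31.6 kb (male), the largest in the female list alone.

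Calls over the TSS that differed between the lists were few. H3K27Ac was in the female list alone at Meis2 (2.39% of all protein-coding genes) and in the male list alone at Meis1 (2.95%). H3K27Me3 was in a single list at 0 of the 10 starts, against 6.01% of protein-coding genes in the female list alone and 2.15% in the male list alone. H3K4Me1 was in the female list alone at Tbx5 (10.2%) and in the male list alone at Isl1 (7.0%).

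Regions without any overlap in the other list were counted per window. Female-only H3K27Me3 regions lay in 7 windows (Tbx5, Tbx20, Hand1, Hand2, Irx4, Meis1 and Meis2), against 41.5% of protein-coding genes, and male-only ones in 2 (Tbx20 and Meis1), against 21.7%. Female-only H3K4Me1 regions lay in 4 windows (Nkx2-5, Hand2, Irx4 and Meis2), against 46.1%, and male-only ones in 2 (Isl1 and Tbx5), against 24.4%. Female-only H3K27Ac regions lay in 2 windows (Hand1 and Meis2), against 30.1%, and male-only ones in 3 (Tbx20, Irx4 and Meis1), against 19.0%. The single-list H3K27Me3 regions, 11 in the female list and 2 in the male list, lay away from the TSS without exception. This follows from the calls above, where each start under H3K27Me3 had it in both lists. A region over such a start therefore always counted as shared. The single-list regions had median widths of 4.2 kb (female) and 2.3 kb (male). Shared regions in these windows had medians of 15.4 kb (female) and 17.2 kb (male). Since an overlap of 1 bp sufficed, a wide region could more readily count as shared. Widths of single-list and shared regions over the whole lists are not given here, so this contrast has no background. Over all H3K27Me3 regions of each list the median width was 4.2 kb (female) and 4.4 kb (male). The whole H3K27Me3 lists held 7384 female-only and 3577 male-only regions.

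CpG content was counted in the single-list and the shared regions. In the windows of the 10 genes, shared H3K27Me3 regions had a median of 20.2 CpG per kb in the female list (20 regions) and 21.0 in the male list (17 regions), against 15.8 (female) and 15.6 (male) over all shared regions. Female-only H3K27Me3 regions had a median of 12.0 CpG per kb (11 regions), against 12.3 over all female-only regions, and the 2 male-only regions, at 6.11 and 6.79 CpG per kb, lay below the median over the 3577 male-only regions. Shared H3K4Me1 regions had a median of 24.3 CpG per kb in the female list and 22.7 in the male list, against 13.6 (female) and 13.5 (male) over all shared regions. The single-list H3K4Me1 regions had medians of 14.2 (4 female-only regions) and 29.3 (3 male-only regions), against 12.9 (female) and 11.7 (male) over all single-list regions. They spread widely, from 3.5 to 41.3 (female-only) and from 18.3 to 36.6 (male-only). Shared regions in the windows ran from 8.34 to 56.4 (female) and from 8.05 to 42.1 (male). For H3K27Ac the median was 30.1 for 2 female-only regions, at 13.1 and 47.1, and 10.4 for 3 male-only regions, from 4.45 to 36.2. The 6 shared regions of each list had medians of 13.8 (female) and 14.2 (male). Over all H3K27Ac regions the single-list medians were 11.9 (female) and 13.2 (male), against 16.3 for shared regions in both lists. The female-only H3K27Ac region over the Meis2 start reached 47.1 CpG per kb and the male-only region over the Meis1 start 36.2.

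**Figure D5:**
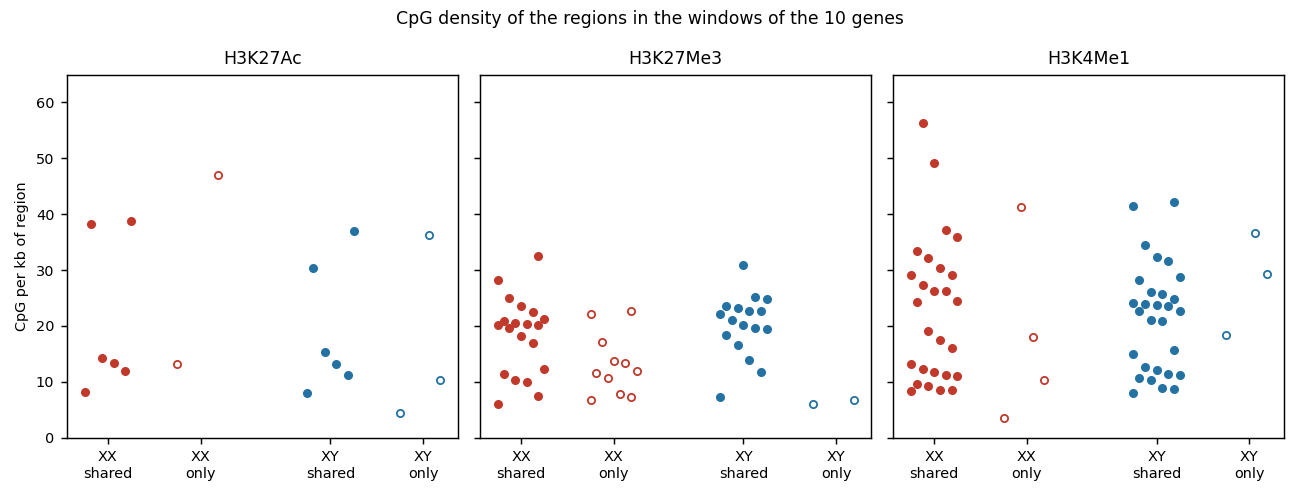
CpG per kb of every region in the windows of the 10 genes, by mark, list and whether it overlaps the other list (filled) or not (open), with the female list (red) to the left of the male list (blue). Shared H3K27Me3 regions reach 32.6 CpG per kb in the female list and 30.9 in the male list, while the 2 male-only regions lie at 6.11 and 6.79.

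The surroundings of the genes were sparse in other genes and rich in H3K27Me3. In 8 of the 10 windows no other protein-coding start was annotated (25.9% of all protein-coding genes), the exceptions being Hand1 and Meis1. H3K27Me3 covered a median of 30.2% of the window in the female list and 27% in the male list. Over all protein-coding genes the medians were 4.35% (female) and 2.81% (male), and over the 3848 with H3K27Me3 over the TSS in both lists they were 18.8% (female) and 15.4% (male). H3K27Ac covered a median of 0% of the window in the female list and 1.2% in the male list, against 6.8% (female) and 6.6% (male) over all protein-coding genes. Over the 3848 genes it covered 5.14% (female) and 4.96% (male). Of the H3K4Me1 regions in the windows, 23 of 31 in the female list and 25 of 32 in the male list overlapped H3K27Me3 of the same list, against 29.4% of all H3K4Me1 regions in the female list and 25.2% in the male list. H3K4Me1 with neither H3K27Me3 nor H3K27Ac made up 4 of the 31 female regions and 2 of the 32 male regions, against 33.0% of the whole female list and 32.6% of the male list. H3K27Ac regions overlapped H3K4Me1 in 8 of 8 cases in the female list and 8 of 9 in the male list, where most regions of the whole lists did so as well (74.3% female, 75.9% male).

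Other genes of heart development were read in the same way. Of 41 further heart transcription factors, 36 carried H3K27Me3 over the TSS in the female list and 33 in the male list, 32 of them in both. Over all protein-coding genes, 23.2% (female) and 19.4% (male) carried it, and 3848 of 22367 in both. Of the 41, 23 carried it in both without H3K27Ac in either. Over all protein-coding genes, H3K27Me3 without H3K27Ac was found at 17.0% in the female list and 14.6% in the male list, counted per list. H3K27Ac lay over 10 starts in the female list and 14 in the male list, against 45.6% (female) and 46.2% (male). H3K27Ac lay over the start of Irx5 in the female list alone and over those of Irx1, Irx2 and Irx3 in the male list alone, while Irx4 of the same family had it in neither. Over all protein-coding genes, 2.39% had H3K27Ac over the TSS in the female list alone and 2.95% in the male list alone. Irx1, Irx2, Irx3 and Smarcd3, a BAF complex subunit, had the same 6-list pattern as Meis1. The transcription factors Foxf1a and Shox2 and the cofactor Myocd had the pattern of Isl1, with H3K4Me1 in the male list alone beside H3K27Me3 in both. None of the 41 had the pattern of Tbx5, Meis2 or Mef2c.

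H3K27Me3 over the TSS was in the female list alone at 4 of the 41, Hopx, Mef2a, Meis3 and Pbx3, against 6.01% of all protein-coding genes. In the male list alone it was at 1, Mef2b, against 2.15%. H3K4Me1 was in the female list alone at 4 of the 41, Hopx, Irx5, Meis3 and Srf, against 10.2% of all protein-coding genes. In the male list alone it was at Mef2a besides the genes with the pattern of Isl1, against 7.0%. Where H3K27Me3 covered these starts, its median width was 18.3 kb in the female list (36 genes) and 21.0 kb in the male list (33 genes). Over all covered protein-coding genes it was 8.6 kb (female) and 8.2 kb (male).

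Heart muscle genes, which these factors act on in cardiomyocytes, carried H3K27Me3 over the TSS at 11 of 26 in the female list and 12 in the male list, with 9 in both, against 23.2% (female) and 19.4% (male) of all protein-coding genes. It was in the female list alone at Ankrd1 and Tnni3, against 6.01% of all protein-coding genes. In the male list alone it was at the sarcomere genes Mybpc3, Myh7 and Myl3, against 2.15%. H3K27Ac lay over the same 5 starts in both lists, against 45.6% (female) and 46.2% (male) of all protein-coding genes. The starts of 6 of the 26 genes, Tnnt2, Actc1, Ttn, Pln, Smyd1 and Csrp3, carried no region of any list, a pattern found at 30.6% of all protein-coding genes. H3K4Me1 was in the female list alone at Des, Gja5, Myl2 and Nppa, against 10.2% of all protein-coding genes. The male list alone had it at Gja1 and Kcnh2, against 7.0%. Of these, Des and Myl2 had the pattern of Tbx5 and Kcnh2 that of Isl1. The width of H3K27Me3 over covered starts had a median of 12.4 kb in the female list (11 genes) and 8.2 kb in the male list (12 genes). Over all covered protein-coding genes it was 8.6 kb (female) and 8.2 kb (male). Only 9 muscle genes were covered in both lists, so their medians do not compare the same genes.

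Of 18 signals of heart induction, 11 carried H3K27Me3 over the TSS in both lists and none in a single list. Over all protein-coding genes, 23.2% carried it in the female list and 19.4% in the male list. It was in the female list alone at 6.01% and in the male list alone at 2.15%. Wnt3, Wnt3a, Wnt5a, Wnt11 and Shh had the pattern of Nkx2-5. Fgf8 had the pattern of Meis1, with H3K27Ac in the male list alone, and Bmp2 that of Isl1. H3K4Me1 was in the female list alone at Jag1 (10.2% of all protein-coding genes) and in the male list alone at Bmp2 and Cer1 (7.0%). Bmp10 and Fgf10 had no region of any list over the TSS, like 30.6% of all protein-coding genes.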

How the data were processed

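ChIP-seq was made by the authors from 12 libraries of the 3 marks, beside 2 IgG and 2 input libraries. The files deposited by the authors hold coordinates of enriched regions on mm9, on a grid of 200 bp. Bowtie2 and Bedtools are named in the methods, Bowtie and deepTools in the submitters' processing notes. IgG and input served as controls, but how they entered the region calls, the caller, its threshold and the pooling of lines are, each of them, not given in the sources used here. Depth per sample and precision are therefore unknown, and a deeper library or a looser threshold gives longer lists. Gene models came from GENCODE M1 (NCBIM37, the assembly of mm9), and promoters from RefSeq (GRCm38.p6), placed on mm9 by exact match. Regions sharing at least 1 bp with the same mark of the other list were called shared. Overlaps were computed in Python 3.11.15, tested on simulated data and checked against Bedtools 2.31.1, with 12 of 12 counts equal. CpG was counted in all regions but 4 that end past a chromosome end. No test was run, since each list is a single observation. Alternatives were windows of 5 and 100 kb, a reciprocal overlap of 50%, merging over gaps up to 1 kb, equal numbers of regions by width, the wider 50% of a list, regions within 2 kb of the TSS and any annotated TSS. The text names all 10 members, genes of the other heart lists with a mark over the TSS in a single list or, where at most 5 of a list share it, with the pattern of a member, and neighbours with a start in a window. Ndufs6 and the muscle genes without any region were added after their values were seen. The members and lists were chosen with earlier results of these data known. Tnnc1 and Tfcp2l1 matched no single gene model and are not analysed here. Some genes of the other heart lists that the rule would name are not reported here.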

Additional observations from a re-analysis of the deposited data

How the results depend on the processing

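Of 78 comparisons of a count, ratio, width or edge with an alternative, 59 gave a value close to the main one and 19 moved. A count within 1.5-fold of the main one was taken as close, so a shift from 4 to 6 genes or from 2 to 3 still passed. The 59 therefore say little about such small counts. Of 24 further comparisons, of the number of regions in the windows, 17 were close and 7 moved. H3K27Me3 over the TSS was among those that did not move. Genes with H3K27Ac over the TSS became 0 in the female list with the widest 50% of regions, and 2 in the male list with regions within 2 kb of the TSS and 2 with any annotated TSS. A window of 5 kb left 1 gene with female-only and 1 with male-only H3K27Ac, 3 with female-only and 1 with male-only H3K27Me3, and 2 with female-only H3K4Me1. A window of 100 kb gave 4 genes with male-only H3K4Me1. H3K27Ac regions then numbered 20 (female) and 19 (male), against 8 (female) and 9 (male) in the main setting. With a reciprocal overlap of 50%, 4 genes had male-only H3K27Me3 and 7 had male-only H3K4Me1. Female-only H3K4Me1 was then at 6 genes, so the order of the lists reversed from 4 female-only against 2 male-only in the main setting. With the widest 50%, 1 gene had female-only H3K27Ac, 1 male-only H3K27Ac, 1 male-only H3K27Me3 and 4 male-only H3K4Me1. The order for H3K4Me1 reversed here too, with 3 genes female-only. Merging over 1 kb gave median width differences, female minus male, of 1800 bp for H3K27Me3 and -4800 bp for H3K4Me1, and H3K4Me1 edge differences of 1600 bp upstream and 2600 bp downstream. The cause of each shift was not tested. No paired analysis was possible because each list stands for a sex and a mark without replicates, and no line could be left out. Read depth is unknown, so an absent region is not shown to be an absent mark.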

Other observations

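Short motifs were searched on both strands of the RefSeq promoters of the 8 matched genes, 10 promoters in all with those of Mef2c. TCACACC, letters of a T-box site, was in none of them, and 3.98% of 32851 promoters held it. TATAAA was in Mef2c promoters 1 and 2 and in Meis2 (13.6% of promoters), TGACAG, letters of a Meis site, in Nkx2-5 alone (19.2%), and CATCTG, an E-box of the kind Hand proteins bind, in Hand2 and in the Mef2c promoter 69.7 kb into the gene (17.2%). AAGTG, letters of an Nkx2 site, was in Hand2, Meis1, Meis2 and the 3 Mef2c promoters (46.4%). GATA was in Nkx2-5, Isl1, Hand2, Meis2 and the 3 Mef2c promoters (57.9%). A match is a run of letters and not a bound site. The RefSeq start of Meis2 lay 1220 bp downstream of the 5′ end of the gene model, under H3K27Ac in the female list and under none in the male list.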
